A study of Mus musculus with 2 samples.

Results

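Imprinted genes are expressed mainly or only from the copy inherited from 1 parent. They were followed here in epithelial cells separated from the mouse uterus on day 4 of pregnancy, with and without the homeobox genes Msx1 and Msx2. The list held 35 genes well known for imprinting in the mouse. Every probe set that the platform annotation gave to exactly 1 of these genes was a member, which made 95 probe sets of 34 genes out of 45037 non-control probe sets on the array. The remaining gene, H19, had no probe set naming it alone. Of the listed genes, 15 are known as maternally expressed (14 with a probe set) and 19 as paternally expressed. Gnas is set apart, since its transcripts come from different parental copies.

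There were 2 Affymetrix arrays, 1 for each genotype, from C57BL/6 mice. The control came from mice with floxed Msx1 and Msx2. The labels name that group only as floxed and do not say whether it carried Cre. The null came from mice in which both genes had been deleted by PRcre, a recombinase made in cells that express the progesterone receptor, so deletion was neither limited to the epithelium nor certain in every cell of it. The treatment text speaks of 5 mice of each genotype and of epithelium, the extraction text of 4 and of stroma, and pooling is not stated. Each genotype had a single array, so nothing could be checked against a replicate and no p-value is given. The values are MAS5 signal intensities. Signals given as a pair are control first, then null, and log2 differences are null minus control. Signals below the floor of 21.1, the median of all non-control signals, were treated as not measurable, and a fold against such a signal is a lower bound. Both probe sets of the targeted gene Msx1 dropped, from 1658 to 28.1 and from 3474 to 42.3. The measured probe set of Msx2 dropped from 63.4 to 23.6, which is 2.69-fold lower and still above the floor, and its other probe set was below the floor on both arrays. Of 13 measured epithelial marker genes, among them Epcam, Cdh1 and Krt8, none differed by 2-fold, and their summed signals were 45844 (control) and 48147 (null). Stromal markers were present on both arrays too, with summed signals of 10379 and 13188.

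In most imprinted regions, DNA methylation laid down in the egg or the sperm marks a control region, and that mark decides which parental copy of several neighbouring genes is used. Long noncoding RNAs read from 1 copy, such as Kcnq1ot1, Airn and Meg3, often lie in these regions, and Kcnq1ot1 and Airn silence neighbours on the copy that makes them. Many imprinted genes act on growth: paternally expressed Igf2 promotes it, and maternally expressed Igf2r, Grb10 and Phlda2 restrain it. An expression array reads the sum of both parental copies. It does not tell which copy was read, so none of the values below measures imprinting itself.

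The genes with the largest differences were Asb4, higher in the null, and Kcnq1ot1, lower in it. The 250 bases before their annotated starts, from RefSeq (GRCm38.p6), are shown because the data turn on these genes, in capitals where they hold a searched motif. For Asb4 the capitals mark TAATTG, a core bound by MSX and many other homeodomain proteins, searched on both strands. For Kcnq1ot1 they mark CCAAT, searched in the same way, the core of the site bound by NF-Y, a factor known to act at this promoter. Asb4 has 2 annotated starts.
Asb4 upstream start, chr6:5383136-5383385, plus strand: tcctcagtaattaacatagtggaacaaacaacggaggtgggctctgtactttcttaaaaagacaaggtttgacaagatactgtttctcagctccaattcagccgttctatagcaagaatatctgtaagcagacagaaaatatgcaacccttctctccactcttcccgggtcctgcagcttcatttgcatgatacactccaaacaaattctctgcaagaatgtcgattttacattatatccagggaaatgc
Asb4 downstream start, chr6:5390160-5390409, plus strand: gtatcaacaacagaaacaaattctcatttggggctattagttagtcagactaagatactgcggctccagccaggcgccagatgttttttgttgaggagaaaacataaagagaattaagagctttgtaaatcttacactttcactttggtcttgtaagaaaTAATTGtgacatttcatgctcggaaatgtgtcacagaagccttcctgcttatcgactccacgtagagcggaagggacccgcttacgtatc
Kcnq1ot1 start, chr7:143296548-143296797, minus strand: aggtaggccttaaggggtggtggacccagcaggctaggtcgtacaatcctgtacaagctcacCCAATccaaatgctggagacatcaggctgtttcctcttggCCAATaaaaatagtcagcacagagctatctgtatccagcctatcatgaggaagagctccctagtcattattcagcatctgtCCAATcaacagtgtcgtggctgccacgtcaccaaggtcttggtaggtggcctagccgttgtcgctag
The downstream Asb4 window held 1 TAATTG, a motif present in 7.17% of 32851 windows of the same length. Of 46 windows of the members, 2 held it, or 4.35%, and the other was a Snrpn window. The Kcnq1ot1 window held 3 copies of CCAAT; 33.8% of all windows held at least 1 copy and 2.79% at least 3. These matches describe the letters and show no binding.

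Of the 34 genes, 17 reached the floor on both arrays. Asb4, Mest and Snrpn (3 genes) reached it only in the null and Mkrn3 (1 gene) only in the control, and 13 reached it on neither. Measured genes numbered 21, which is 61.8% of those with a probe set, against 64.1% of all 18193 genes. With the brightest probe set of each gene, 2 of the 21, Asb4 and Sgce, were higher in the null by 2-fold or more, and Kcnq1ot1 (1 gene) was lower by as much. Over all 11662 measured genes 7.73% were that much higher and 4.75% that much lower, so the members' shares were near the background. When the hybridization spike-in controls were made equal between the arrays, 572 of all genes were higher and 1044 lower by that threshold, in place of 902 and 554, while the members' counts stayed at 2 and 1. Of the remaining 18, 15 had both signals above the floor and lay within 2-fold. The other 3, Mest, Snrpn and Mkrn3, had lower bounds short of 2-fold, which set no upper limit. The median log2 difference of the 21 was 0.15, beside 0.08 over all genes. Counted by probe set, 45 of the 95 were measured, of which 3 were at least 2-fold higher and 4 at least 2-fold lower, where 6.25% and 6.49% of all 20942 measured probe sets were. The 4 lower ones belong to Kcnq1ot1 and Ube3a alone. Probe sets that name one gene disagreed by 0.38 (log2 difference, pooled SD over 4647 genes with more than 1 probe set above the floor on both arrays). That value is used as a yardstick, although it contains no variation from mouse to mouse.

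**Figure D1:**
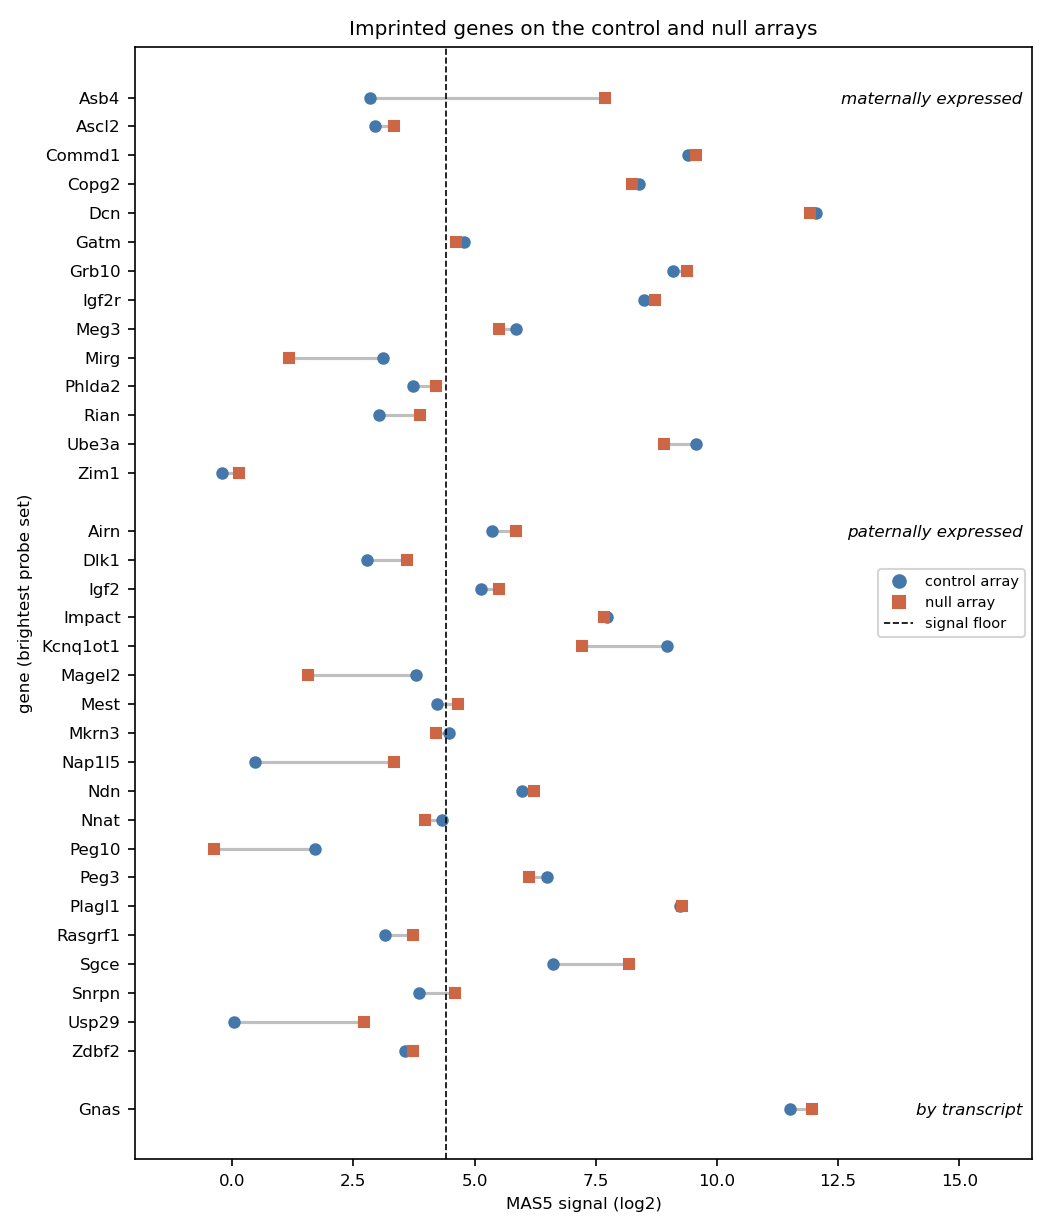
MAS5 signal on a log2 axis for the brightest probe set of each of the 34 imprinted genes with a probe set, on the control array (circles) and the null array (squares), by parental class; the dashed line is the floor of 21.1. Signals of different rows come from different probes and cannot be ranked. The Asb4 line crosses the floor, the Sgce and Kcnq1ot1 lines lie above it, and other long lines lie left of it, at genes that were not measurable.

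Asb4, which encodes an ankyrin repeat and SOCS box protein that selects targets for ubiquitination, was detected on the null array alone. Its 2 probe sets read 7.14 and 0.694 in the control, both below the floor, and 207 and 460 in the null. These are lower bounds of 3.29 and 4.44 on the log2 scale, at least 9.80-fold for the first probe set and at least 21.8-fold for the second. The size of the bound follows the floor: with a floor at the 67th percentile the log2 bound was 1.51, and at the 33rd percentile 4.59. Both were past 2-fold, and every scaling of the arrays that was tried left Asb4 past it. Sgce, the gene of epsilon-sarcoglycan, a membrane protein of the dystrophin complex, was 2.93-fold higher by its measured probe set, which went from 98.9 to 290 (log2 1.55). Its other probe set was below the floor on both arrays (12.3 and 8.37). That measured probe set has a suffix for alternative transcripts, and without such probe sets Sgce had no value.

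Asb4 and Sgce lie in 1 imprinted region, on chromosome 6, with the paternally expressed retrotransposon-derived gene Peg10 beside Sgce. Peg10 was below the floor on both arrays (3.26 and 0.777), so the divergent pair Sgce and Peg10 could be compared only on the Sgce side. Genes between Peg10 and Asb4 in the same region, from a list of other imprinted genes, were also read. The paraoxonase gene Pon3 was 3.06-fold higher in the null (60.5 and 185, log2 1.61) and Pon2 stood at 0.76 on the log2 scale (321 and 546). Ppp1r9a, named for its position after its values were seen, stood at 0.60 by its brightest probe set (258 and 392), with its measured probe sets between -0.01 and 0.60. At the edges, Casd1 (794 and 773) and Dlx5 (1732 and 1742), chosen in the same way, hardly differed. The region thus held higher signals for Sgce, Pon3 and Asb4, which include both a paternally and a maternally expressed gene. Casd1 and Dlx5, on either side, were not past 2-fold. Beyond Casd1, Calcr was below the floor on both arrays. Tfpi2, also beyond it and named after its values were seen, reached the floor only in the null (8.63 and 31.0). Its log2 bound of 0.55 sets no upper limit. Smooth muscle markers were higher on the same array, with 5 of 7 measured past 2-fold (3 with the spike-in scaling) and none lower by as much. Of these 5, Actg2, Cnn1 and Myh11 reached the floor only in the null, so their folds are lower bounds. Acta2 and Tagln were above it on both arrays. Des went the other way (54.4 and 41.2, log2 -0.40). The summed signal of the markers went from 336 to 1009, of which Acta2 alone gave 163 and 595. Gland markers were higher too, with 4 of 4 measured above 0 (3 with the spike-in scaling). Past 2-fold were 2, Cxcl15 (42.2 and 194, log2 2.20) and Foxa2 (23.0 and 55.1, log2 1.26). Foxa2 lay near the floor in the control. Only 1, Cxcl15, was past 2-fold with the spike-in scaling. Summed gland signals were 11159 and 12647, of which Calb1 alone gave 11068 and 12345. Of 8 macrophage markers 7 were above 0 (6 with that scaling) and 2 past 2-fold (0 with that scaling). Their summed signals were 5336 and 5924, of which Cd14, not higher in the null, gave 4260 and 4086. Of 5 plasma cell markers 4 were above 0 (3 with that scaling) and 2 past 2-fold (1 with that scaling). Their summed signals were 1838 and 3019, of which Xbp1 gave 1593 and 1762. Jchain, of secreted antibodies, was 13.7-fold higher and Sdc1 2.40-fold higher. Ighm was within 2-fold and dim (33.5 and 42.8, log2 0.35), and Mzb1 went the other way (63.5 and 54.0, log2 -0.23). Mesothelium markers went the other way, with 4 of 4 measured below 0 and none past 2-fold (1 with the spike-in scaling). Their median was -0.60 (-0.89 with that scaling). The part of these cell types in the differences was not tested. Of the 12 embryo and trophoblast markers with a probe set, 9, among them Pou5f1, Nanog, Cdx2, Eomes and Tpbpa, were below the floor on both arrays. Elf5, on that list but also a gene of glandular epithelium, went from 159 to 441.

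**Figure D2:**
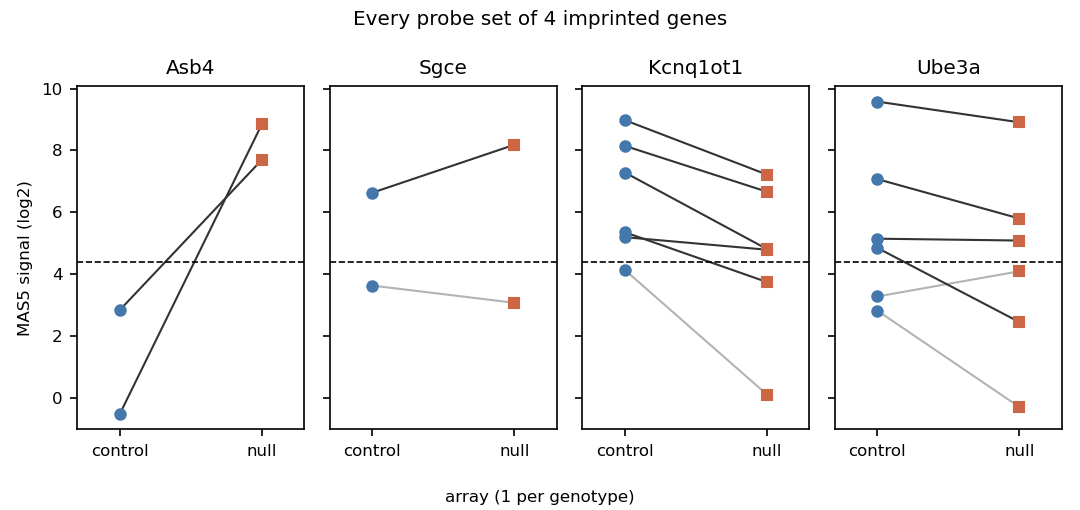
Every probe set of Asb4, Sgce, Kcnq1ot1 and Ube3a, with MAS5 signal on a log2 axis for the control array (circles) and the null array (squares); the dashed line is the floor of 21.1 and grey lines join probe sets below it on both arrays. Both Asb4 probe sets cross the floor upwards, and the 5 measured Kcnq1ot1 and 4 measured Ube3a probe sets all slope down.

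Kcnq1ot1, the paternally expressed antisense RNA that starts inside the potassium channel gene Kcnq1 and silences its neighbours on that copy, was lower in the null by all 5 of its measured probe sets. The brightest fell from 503 to 149, which is 3.38-fold lower (log2 -1.76). Another read 283 and 101, 2.80-fold lower, and the next 156 and 28.0, 5.56-fold lower. The other two were dimmer: 1 read 36.5 and 27.5, short of 2-fold, and 1 read 40.7 and 13.3, at least 1.93-fold lower. The probe sets therefore gave 1 direction but not 1 size, between -2.48 and -0.41 on the log2 scale, and the direction held under every scaling tried.

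Other long RNAs that stay in the nucleus, chosen after their values were seen, were lower on the same array. Malat1 was lower by 7 of 7 probe sets, 5 of them at least 2-fold, with log2 differences between -1.44 and -0.48. Xist, the RNA of the inactive X chromosome, was lower by 3 of 3, between -1.55 and -0.46, and Tug1 by 3 of 3, between -0.71 and -0.29. Neat1 had 1 probe set at -0.67 and a dim one that crossed the floor upwards, with a bound of 0.23. Malat1, Xist and Tug1 kept these counts of lower probe sets under each scaling tried. The part of such a shift in the Kcnq1ot1 signal was not tested. Not all long noncoding members went this way. The brightest Airn probe set read 41.2 and 58.1 (log2 0.50). Meg3 was lower by 3 of its 4 measured probe sets, with the brightest at -0.34.

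Kcnq1ot1 and its neighbours were then read as a group, since loss of this RNA is known to raise the expression of genes it silences. Signals past 2-fold went both ways among them. Cdkn1c, a maternally expressed inhibitor of cyclin-dependent kinases and a known target of the silencing, has 1 probe set, which was 3.27-fold lower (833 and 255, log2 -1.71). Cd81, which encodes a tetraspanin, was 2.25-fold higher (800 and 1799, log2 1.17), but short of that with the spike-in scaling (0.88). Of the other targets, chosen by position after their values were seen, Kcnq1 itself (114 and 126), the transporter gene Slc22a18 (149 and 190) and Osbpl5 (209 and 165) were within 2-fold. Phlda2, a maternally expressed brake on placental growth, read 13.3 and 18.4, and Ascl2, a transcription factor of the trophoblast, read at most 7.70 and 10.1 by its probe sets, so both lay below the floor. Among the measured genes of this region on the 2 lists of imprinted genes, from Igf2 to Osbpl5, Cd81 alone was past 2-fold upwards. Genes of the region outside these lists were not read.

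**Figure D3:**
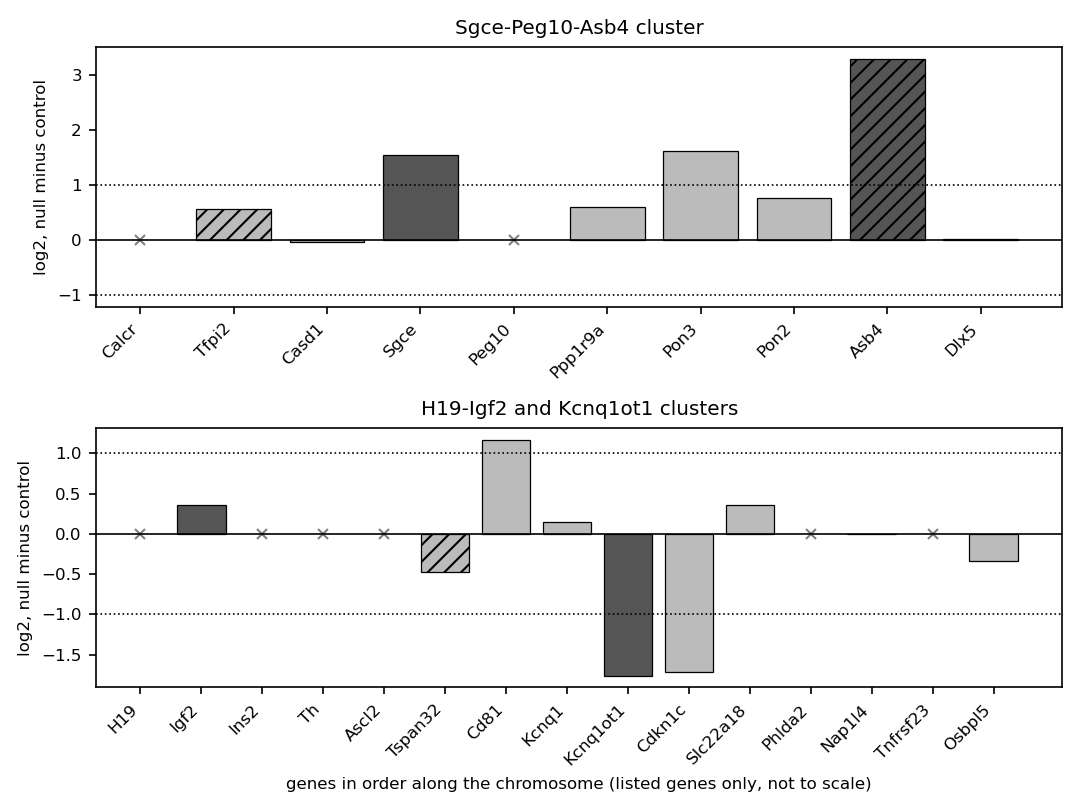
Log2 difference, null minus control, of the listed genes of 2 imprinted regions in their order along the chromosome (not to scale). Dark bars are members and light bars genes from the list of other imprinted genes. Hatched bars are lower bounds and crosses genes with no value. Dotted lines mark 2-fold. Sgce, Pon3 and Asb4 stand above the upper line in the first region, and in the second Cd81 stands above the upper line and Kcnq1ot1 and Cdkn1c below the lower one.

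Ube3a, the maternally expressed ubiquitin ligase gene whose imprinting is known from neurons, was lower by all 4 of its measured probe sets, only 1 of them past 2-fold. The one nearest 0 turned positive with 3 of the 4 other scalings. They read 763 and 480 (log2 -0.67), 134 and 55.4 (2.42-fold lower, log2 -1.27), 35.3 and 33.8 (-0.06), and 28.7 and 5.43 (a bound of -0.44) in the control and the null. The gene, taken by its brightest probe set, did not reach the threshold. Paternally expressed genes of the same region were read too. Ndn, which encodes the growth-restraining protein necdin, had 5 measured probe sets between 0.13 and 0.58, the brightest at 63.5 and 75.2, and only 2 of them stayed above 0 with the spike-in scaling. Magel2, a relative of Ndn, was below the floor on both arrays, and Mkrn3, a ring finger gene, read 22.1 and 18.4 at the floor itself. Snrpn, which encodes a protein of the splicing machinery, had 1 probe set of its own, at 14.5 and 24.1. Its brighter signals come from probe sets shared in name with Snurf, the upstream reading frame of the same transcript, and these were left out by the rule. All 4 measured ones were higher in the null, 2 of them past 2-fold, by 0.49 to 1.21 on the log2 scale. Those 2 have suffixes for probe sets that may match more than 1 transcript, and the measured one without such a suffix stood at 0.49. The spike-in scaling lowers the log2 difference of every probe set above the floor on both arrays alike. It took Cd81 from 1.17 to 0.88, and with it neither of those 2 is past 2-fold.

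The imprinted genes of the insulin-like growth factor system were within 2-fold by their brightest probe sets. Igf2, the fetal growth factor, read 35.3 and 45.3 by its measured probe set (log2 0.36), near the floor on both arrays. Igf2r, the receptor that carries Igf2 to the lysosome, read 360 and 425 by 1 probe set and 236 and 292 by the other (log2 0.24 and 0.30). Grb10, an adaptor that dampens insulin and growth factor receptors, read 546 and 663 by its brightest probe set (0.28). With the spike-in scaling, all genes had a median of -0.20 and the brightest probe sets of Igf2r and Grb10 stood at -0.05 and -0.01, so their direction depends on the scaling. Genes of the system that are not imprinted were read as a list. Of 10 measured genes, 4 were past 2-fold upwards (1 with the spike-in scaling) and 2 downwards (2 with that scaling), with a median of 0.40 (0.11 with that scaling). Over all measured genes 7.73% were that much higher and 4.75% that much lower. Whether these 10 genes differed more than the imprinted ones was not tested. Grb14, named after its values were seen, was 1 of the 4 upwards. It reached the floor only in the null (17.8 and 92.3, a log2 bound of 2.13). The spike-in scaling lowers the log2 difference of every gene above the floor on both arrays alike, and a bound by less. Grb14 is therefore the 1 gene left past 2-fold upwards with it. Igfbp4, Igfbp7 and Irs1, the other upward genes, fell short. Igfbp4 (2.38-fold higher), Igfbp7 (2.11-fold higher) and Igfbp3 (3.31-fold lower) encode proteins that bind the growth factors or, for Igfbp7, resemble them. Irs1, the docking protein below the receptors, was 2.21-fold higher, and the brightest probe set of the receptor gene Igf1r was 2.06-fold lower, with 4 measured probe sets between -1.48 and 0.00.

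The Dlk1 and Meg3 region gave few measurable signals. Dlk1, a Notch-like regulator of differentiation, was below the floor by both probe sets, as were the noncoding RNA genes Rian and Mirg by all of theirs. Meg3, the first noncoding RNA of that maternally expressed series, had 11 probe sets, of which 4 were measured. Its brightest read 57.8 and 45.6 (log2 -0.34) and a second 48.5 and 39.8 (-0.29). The other two crossed the floor in opposite directions, with bounds of 0.20 and -0.42. In the Peg3 region, Peg3, a zinc finger gene, read 89.7 and 70.1 (-0.36) and 38.5 and 37.1 (-0.05), while Usp29 and Zim1 were below the floor.

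The remaining members differed little between the arrays or were below the floor. Dcn, the proteoglycan decorin of connective tissue, read 4213 and 3877 (log2 -0.12). It is itself one of the stromal markers, of which 13 of 14 measured were above 0 (11 with the spike-in scaling), Dcn being the exception, with 1 past 2-fold and a median of 0.54. Plagl1, a zinc finger gene that restrains growth and regulates other imprinted genes, read 607 and 620 (0.03). Commd1, a gene of copper handling, read 681 and 756 (0.15) and 187 and 237 (0.34) by its 2 probe sets. Copg2, a coat protein gene, read 337 and 305 (-0.14), and Impact, a regulator of translation under stress, read 213 and 204 (-0.06). The partner of Copg2, the hydrolase-like gene Mest, crossed the floor from 18.8 to 25.4. Gnas, which encodes the stimulatory G protein alpha subunit and further proteins from other promoters, did not give 1 direction. Its brightest probe set read 2908 and 4001 (0.46), and 2 dim ones read 55.9 and 30.6 (-0.87) and 53.1 and 35.1 (-0.60). Gatm, of creatine synthesis, read 27.7 and 24.7. Nnat, Nap1l5, Zdbf2 and Rasgrf1 were below the floor by their brightest probe sets, although another Rasgrf1 probe set reached 27.0 in the null.

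Maternally and paternally expressed genes were then set side by side. The floor was reached by 8 of 14 maternally expressed genes in the control and by 9 in the null, and by 9 and 10 of 19 paternally expressed genes. Of 9 measured maternally expressed genes, 1 was at least 2-fold higher (Asb4) and none lower, with 4 above 0, 5 below 0 and a median log2 difference of -0.12. Of 11 measured paternally expressed genes, 1 was higher (Sgce) and 1 lower (Kcnq1ot1), with 7 above 0, 4 below 0 and a median of 0.19. The medians differed by -0.31. The bounds of Asb4, Mest, Snrpn and Mkrn3 entered these counts and medians as if they were values. The paternal median is the bound of Snrpn (14.5 and 24.1), and the maternal median is the value of Dcn. With only genes above the floor on both arrays the medians were -0.13 and 0.14. The sign of that difference was not stable: without genes imprinted mainly in placenta or brain it was 0.07, with the 67th percentile floor 0.17 and with means in place of medians 0.20. With the spike-in scaling the medians were -0.41 and -0.06. Of the maternally expressed genes above 0, Igf2r, Grb10 and Commd1 then fell below it (-0.05, -0.01 and -0.14), and Asb4 alone stayed above. Of the paternally expressed ones, Ndn and Plagl1 fell below 0 (-0.05 and -0.26) and the others stayed above.

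**Figure D4:**
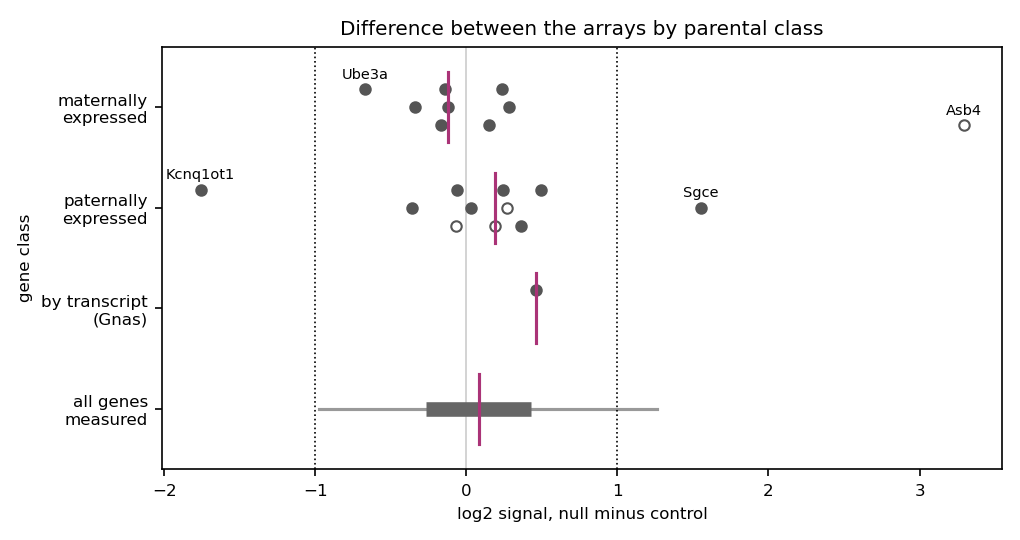
Log2 difference, null minus control, of each measured imprinted gene by parental class (filled points, above the floor on both arrays; open points, lower bounds), with the class median as a vertical bar. The bottom row gives the median, the middle 50% (thick) and the 5th to 95th percentiles (thin) of all 11662 measured genes, from -0.98 to 1.26. Asb4, Sgce and Kcnq1ot1 lie outside that span, and the plotted values or bounds of the other 18 imprinted genes lie within it.

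A second list held other imprinted genes. Of 26 measured, 2 were at least 2-fold higher (Pon3 and Cd81) and 1 lower (Cdkn1c), with a median of 0.16, where 7.73% and 4.75% of all genes were that much higher and lower. With the spike-in scaling 27 were measured, 1 was higher and 2 lower, and the median was -0.13. Cobl, an actin nucleator, fell short of 2-fold (log2 -0.87, 1623 and 886).

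Genes that set or keep imprints were read as well. Of 21 measured, 1 was at least 2-fold higher and 3 at least 2-fold lower, where 7.73% and 4.75% of all genes were. The median was 0.00, with 11 above 0. With the spike-in scaling it was -0.29, with 5 above 0. Uhrf1, which brings the maintenance methyltransferase to newly copied DNA, was 3.82-fold higher (51.0 and 195), and the methyltransferase genes Dnmt1 and Dnmt3b stood at 0.52 and 0.78. Dnmt1 was named for its role after its values were seen. The 3 lower genes were the chromatin remodeller Atrx (2.20-fold, lower by 7 of 7 probe sets), Arid4a (2.15-fold) and Arid4b (2.29-fold, lower by 5 of 5 measured probe sets), the last 2 known to act on the imprinted Snrpn region. Zfp57, which guards methylated imprints in the early embryo, was below the floor on both arrays. Its motif, TGCCGC searched on both strands, lay in 8 of 46 windows of 250 bases before the starts of 30 members, or 17.4%, and in 8.68% of all windows. Member windows also held more CpG, a median of 11 against 6, and some belong to the same gene or overlap. Members with the motif included Mest, Plagl1 and Zdbf2, whereas the printed Asb4 and Kcnq1ot1 windows held none.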

How the data were processed

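Expression was measured on 2 Affymetrix arrays, 1 for each genotype. The authors deposited linear signal intensities. Per the submitters' processing notes, the tools were MAS5 and Affymetrix Expression Console, version 1. Scaling is part of MAS5, and the 2% trimmed mean of the deposited intensities was 150.0 on both arrays, so a difference in total RNA would not be seen. No genome build is given in the sources used here. Groups follow the genotype labels.

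From the deposited values, log2 differences (null minus control) were calculated with Python 3.11.15, numpy 2.4.6 and pandas 2.3.3. Signals were floored at the 50th percentile over all probe sets except controls, and 2-fold was the threshold. A gene is represented by its brightest probe set (mean log2 signal of both arrays) of those that name no other gene. Probe sets naming several genes were left out. All 35 names were found in the RefSeq gene table of GRCm38.p6, and 30 had promoter windows. Sequence is credited to RefSeq.

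All members are named; of each further list, up to 5 genes with the largest differences measured on both arrays. Members and lists were chosen with earlier results of these data known. Alternatives were 4 scalings, other floors and thresholds, a pseudocount of 16, other summaries of probe sets and fewer genes. The steps were tested on simulated data. The number of arrays limits the precision.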

Additional observations from a re-analysis of the deposited data

Results flagged for a closer look

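Probe sets that name an imprinted gene together with another gene were outside the comparisons above, and 5 of 8 gave a signal at or above the floor in the null that was higher than in the control. The probe set shared by H19 and the microRNA gene Mir675 went from 27.4 to 41.2 (log2 0.59). It is the only reading of H19. The 4 measured probe sets shared by Snurf and Snrpn read 310, 162, 76.1 and 181 in the control. In the null they read 436, 309, 176 and 372, with log2 differences of 0.49, 0.93, 1.21 and 1.04, so 2 of them were past 2-fold. Only the one at 0.49 has no suffix for probe sets that may match more than 1 transcript. The spike-in scaling lowers all 4 by the same amount that took Cd81 from 1.17 to 0.88, and with it none of the 4 is past 2-fold. The probe set of Snrpn alone crossed the floor at a bound of 0.19. With 1 array per genotype these differences have no replicate check.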

How the results depend on the processing

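Of 195 gene values under the 10 alternatives that give gene values, 189 moved by less than 0.38, the disagreement between probe sets of a gene; 6 moved more and no gene past 2-fold changed sign. Asb4, Sgce and Kcnq1ot1 were past 2-fold under every alternative that gave them a value (9, 9 and 10). Gnas stood at -0.60 with the median over probe sets and without shared or alternative probe sets. The counts of members at least 2-fold higher and lower moved as follows. Without shared or alternative probe sets 1 gene was higher. With only those above the floor on both arrays 1 gene and 1 probe set were higher. With the 33rd percentile floor 5 probe sets were higher and 7 lower. With the spike-in scaling 6 probe sets were lower, and with a pseudocount in place of the floor 4 were higher and 5 lower. At 1.5-fold 2 genes and 8 probe sets were lower, and at 3-fold 1 gene was higher and 2 probe sets lower. The maternal minus paternal difference was 0.17 with the 67th percentile floor and 0.20 with means, where the maternal value was 0.28. Higher genes made up 62.0% of all genes past 2-fold, 35.4% with the spike-in scaling. Signal near the floor limits what can be said of 13 genes. No paired analysis was possible because there was 1 array per genotype, and for the same reason no array could be left out.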
